A study of Mus musculus with 4 samples.

Results

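The MYC family and MAX network are basic helix-loop-helix leucine zipper transcription factors, and 10 of their genes were followed here among the 34745 genes of the deposited table: Myc, Mycl, Mycn, Max, Mxd1, Mxd3, Mxd4, Mxi1, Mnt and Mlx. They were found by gene name, and all 10 were present. The set was chosen by name with measured values of these same libraries already known, namely the difference between the DI and vehicle counts. The differences of the 10 members below are therefore a description, with no test. The libraries came from bone marrow-derived macrophages (BMMs) of wild-type 8-week-old male C57BL/6 mice. All cultures were kept without serum for 12 h and then received RANKL at 100 ng/mL, the cytokine that drives macrophages towards osteoclasts, for 24 h. The RANKL+DI group (2 libraries) also received dimethyl itaconate, a cell-permeable ester of the macrophage metabolite itaconate. Its dose is 20 mM in the labels and 20 μM in the methods of the study. The RANKL+Veh group (2 libraries) received the solvent, DMSO. Every group therefore carried RANKL, and no culture without RANKL was compared. Nothing in the labels says that libraries of a group came from separate mice or cultures, so the standard errors and p-values measure the spread between these libraries, which may be technical.

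MYC, MYCL and MYCN bind DNA only as a pair with MAX, at the E-box CACGTG, and raise transcription of genes for ribosome synthesis, nucleotide synthesis and cell division. The MXD proteins, MXI1 and MNT compete for the same partner and recruit the SIN3 and HDAC corepressors to the same sites. MLX is a MAX-like partner for MNT, for some MXD proteins and for the glucose-sensing factors MondoA (Mlxip) and ChREBP (Mlxipl). In myeloid precursors, MYC is known for driving proliferation and for taking part in early osteoclast differentiation.

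Since the proteins of the network bind E-boxes, the start regions of the members were read for this motif. RefSeq promoters (GRCm38.p6, 250 bases before to 50 after the start) were held for 9 of the 10 members (all but Myc), in 11 windows because Mxi1 has 3. The members' windows held 55% (Mlx) to 76.7% (Mxd1) G and C, against a median of 52.7% over all promoters. Motif shares over all promoters are therefore given as background only. Exact CACGTG, which reads the same on both strands, was present in 4 of the 11 windows, of 4 members, and in 7.15% of all 32851 promoters. These 4 are shown with the bases around the E-box, which stands in capitals, 5′ to 3′ along the gene's own strand. They lie at chr5:34187904-34187949 (minus strand), chr11:74830781-74830826 (plus), chr11:101087230-101087275 (plus) and chr12:76962226-76962271 (minus). The windows of Mycl and Mycn held none, and that of Myc was not analysed here.
Mxd4: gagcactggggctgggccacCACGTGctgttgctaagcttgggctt
Mnt: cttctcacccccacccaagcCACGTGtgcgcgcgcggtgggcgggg
Mlx: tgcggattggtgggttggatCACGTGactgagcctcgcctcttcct
Max: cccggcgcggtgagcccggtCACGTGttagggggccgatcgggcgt

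With the start base counted as 0, the E-box ran from -219 to -214 in Mxd4, from -123 to -118 in Mnt and from -40 to -35 in Mlx. In Max it ran from -3 to 2, across the start itself. The bases before the RefSeq start of Mycl and Mxd1 are shown because these members had lower counts with DI. The Mycl window (chr4:122995681-122995930, plus strand) holds the letters TATAAA, in capitals, from -8 to -3. This motif was found in 13.6% of all promoters on either strand and in no other member's window. The shown Mycl bases lie inside its deposited locus (chr4:122995652-123002485), so the RefSeq start differs from the deposited one. In the Mxd1 window (chr6:86669160-86669409, minus strand) the capitals mark a match to TGACNNNGC, the core of the antioxidant response element bound by NRF2, read on the opposite strand. This core was found in 12.4% of all promoters and also in the windows of Mlx, Max, Mxd3 and Mxi1. TGANTCA, the AP-1 site, occurred in 7.81% of all promoters and in none of the members' windows. A match is only a description of the letters and shows no binding.
Mycl: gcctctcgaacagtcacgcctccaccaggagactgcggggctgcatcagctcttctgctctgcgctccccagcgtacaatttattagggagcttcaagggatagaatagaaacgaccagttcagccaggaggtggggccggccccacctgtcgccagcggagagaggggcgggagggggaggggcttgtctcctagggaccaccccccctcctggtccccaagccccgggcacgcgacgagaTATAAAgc
Mxd1: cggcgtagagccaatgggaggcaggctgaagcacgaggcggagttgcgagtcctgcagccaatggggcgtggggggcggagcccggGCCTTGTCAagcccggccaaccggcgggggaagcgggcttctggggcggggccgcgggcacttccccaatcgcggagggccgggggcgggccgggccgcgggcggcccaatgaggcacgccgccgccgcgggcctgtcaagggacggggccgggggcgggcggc

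Counts are given as CPM, the usual count of a gene relative to its library total, after TMM scaling between libraries, and each library held 16085692 to 19403480 counts. A count of 3, taken as the floor of detection, corresponds to 0.160 to 0.180 CPM. Of 34745 genes, 12590 passed the filter on low counts and entered the quasi-likelihood fit of edgeR, in which 14.8% were called at an adjusted p under 0.05, with 7.70% lower and 7.14% higher with DI (969 and 899 genes). Scaling by library size only gave 1932 lower and 548 higher genes and moved the median of all genes by -0.10 on the log2 scale. Between the groups, the CPM of 58.6% of all tested genes did not overlap. Of the members, 9 passed the filter. Of these, 3 were called, all lower (Mycl, Myc and Mxd1), and 8 had groups that did not overlap, and nothing is read from these counts because the choice of the members used the same contrast. The median log2 fold change was -0.08 over the 9 members and 0.0012 over all tested genes. In bulk RNA, fewer cells of a type and less RNA per cell cannot be told apart.

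Mycl (ENSMUSG00000028654, chr4:122995652-123002485, mm10) encodes L-MYC, the MYC paralog best known in dendritic cell precursors and small cell lung cancer. It had 201 and 191 counts in the vehicle libraries and 29 and 38 with DI. This was 10.8 and 11.5 CPM with vehicle and 1.69 and 2.03 CPM with DI, far apart and with little spread in either group. The means were 11.1 ± 0.478 CPM (SD, n = 2) and 1.86 ± 0.238 CPM (SD, n = 2), a level 5.95-fold lower with DI. The log2 fold change was -2.57 with a standard error of 0.16, and only 12 of the tested genes had a lower one. With each library left out in turn it lay between -2.71 and -2.45. Because Mycl was a low gene, the difference shrank to -1.17 on the log2(FPKM + 1) scale.

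Myc (ENSMUSG00000022346, chr15:61985341-61990374), the founding member of the family, had 959 and 687 counts with vehicle and 457 and 454 with DI. In CPM the vehicle libraries lay at 51.5 and 41.2 and the DI libraries at 26.6 and 24.2. The vehicle libraries differed more from each other than the DI libraries, but both were above both DI libraries. The means were 46.4 ± 7.24 CPM with vehicle and 25.4 ± 1.71 CPM with DI (SD, n = 2 each), so that Myc fell by 45.2%. The log2 fold change of Myc was -0.87 with a standard error of 0.12, -0.70 without vehicle replicate 1 and -1.02 without vehicle replicate 2. Mycn (ENSMUSG00000037169, chr12:12936096-12941914), the neuronal and embryonic paralog, had 1 count in vehicle replicate 1 and 0 in the other libraries. It was at or under the floor in every library, did not pass the filter and is given no fold.

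**Figure D1:**
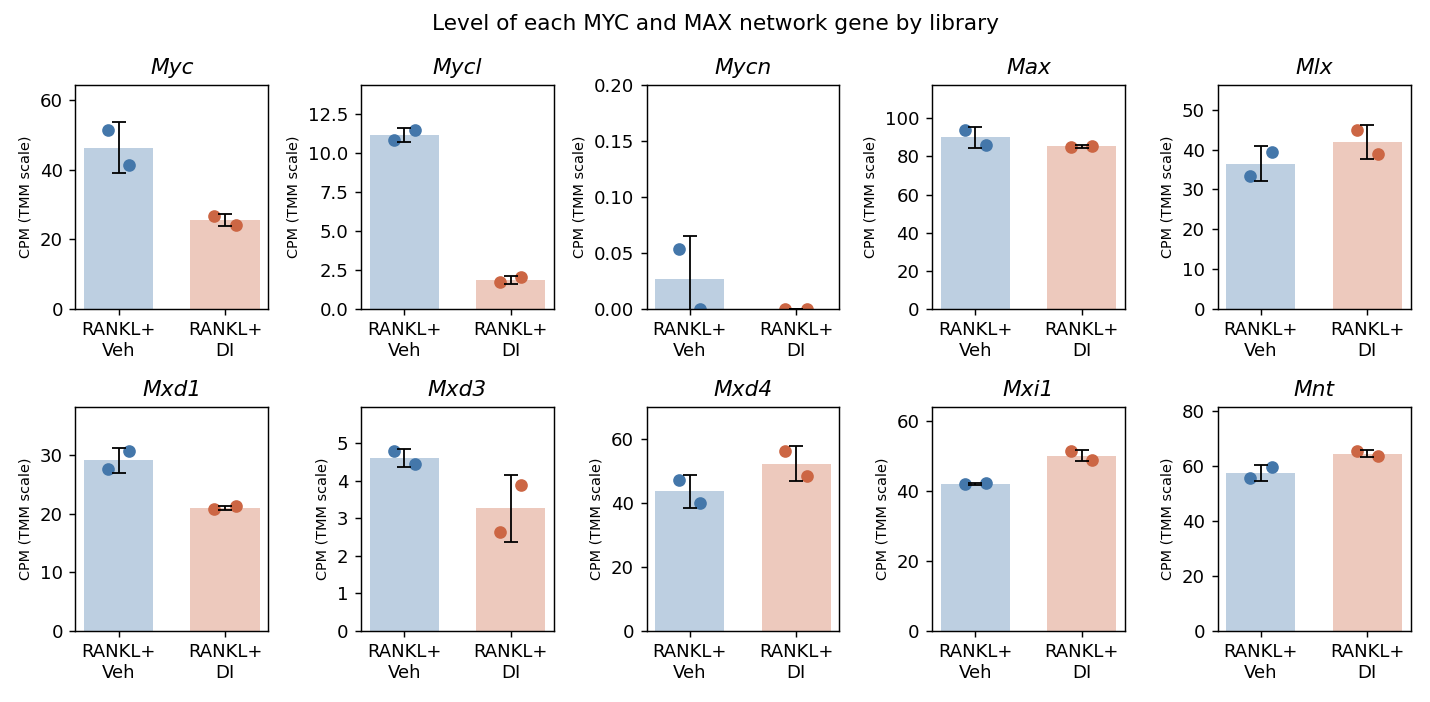
Level of each of the 10 genes in every library, in CPM on the TMM scale (each vertical axis starts at 0 and has its own range). Points are libraries of BMMs with RANKL+Veh or RANKL+DI (2 each). Mycl and Myc showed the widest gaps between the groups, Mlx overlapped, and Mycn was at or near 0 throughout.

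Max (ENSMUSG00000059436, chr12:76937269-76962248), the obligate partner, had 94.0 and 85.9 CPM with vehicle and 84.8 and 85.7 CPM with DI. The DI libraries lay just under the lower vehicle library. The log2 fold change of Max was -0.08 with a standard error of 0.062, so the difference was about as large as its error.

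Among the MAX partners that oppose MYC, the members did not move together. Mxd1 (ENSMUSG00000001156, chr6:86647042-86669161), which rises as many myeloid cells stop dividing and differentiate, had 27.6 and 30.7 CPM with vehicle and 20.8 and 21.3 CPM with DI. Both DI libraries were below both vehicle libraries, and the level fell by 27.8%. The log2 fold change of Mxd1 was -0.47 with a standard error of 0.088, and between -0.54 and -0.39 with a library left out. The edgeR call was lost without DI replicate 1, without DI replicate 2 or without vehicle replicate 2. Mxd3 (ENSMUSG00000021485, chr13:55325168-55329758), the member of the group that is linked to S phase in dividing cells, had 4.78 and 4.44 CPM with vehicle and 2.62 and 3.89 CPM with DI. The DI libraries were again the lower ones but spread widely, and the log2 fold change of -0.49 had a standard error of 0.23. It lay between -0.81 and -0.24 with a library left out.

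The other opposing partners had values above 0. Mxi1 (ENSMUSG00000025025, chr19:53310506-53375810), also called Mxd2, had 42.0 and 42.3 CPM with vehicle and 51.4 and 49.0 CPM with DI, a log2 fold change of 0.25 with a standard error of 0.064. Mxd4 (ENSMUSG00000037235, chr5:34173883-34187720) had 47.3 and 40.0 CPM with vehicle and 56.2 and 48.5 CPM with DI. Its groups were separate by a narrow margin, and its log2 fold change was 0.26 with a standard error of 0.11. Mnt (ENSMUSG00000000282, chr11:74830920-74845725), the broadly expressed MYC antagonist, had 55.5 and 59.6 CPM with vehicle and 65.3 and 63.5 CPM with DI, and its log2 fold change was 0.16 with a standard error of 0.065. None of these 3 was called, although limma-voom called Mxi1.

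Mlx (ENSMUSG00000017801, chr11:101087277-101092207) was the 1 tested member whose groups overlapped. It had 33.3 and 39.5 CPM with vehicle and 45.0 and 38.9 CPM with DI, so that DI replicate 2 lay under vehicle replicate 2. The log2 fold change of Mlx was 0.20 with a standard error of 0.11. The gene on the opposite strand, Psmc3ip, covers 19.3% of the exon bases of Mlx, and no source says that strand was used in counting, so reads of the pair cannot be told apart. Psmc3ip itself had 154 and 106 counts with vehicle and 92 and 120 with DI. Opposite genes cover less of Mxd4 (Gm42846, 6.06%), Mxd3 (Prelid1, 4.43%) and Mxi1 (Gm10197, 2.84%). Prelid1 was far above Mxd3, with 4410 to 5146 counts against 45 to 89. No tested member changed sign under any of its 15 alternative settings, scaling included.

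**Figure D2:**
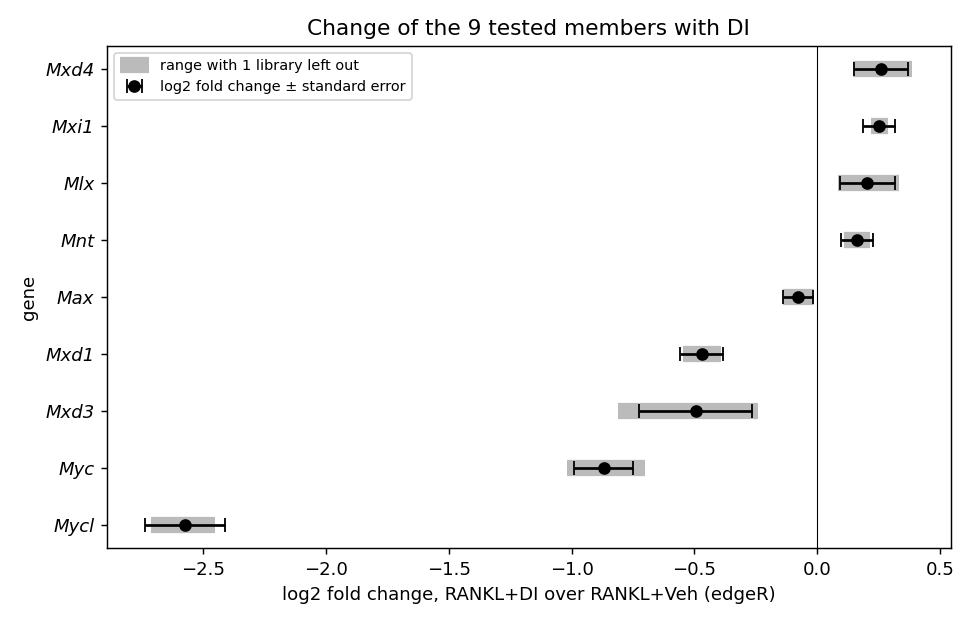
Log2 fold change of the 9 tested members (horizontal axis, RANKL+DI over RANKL+Veh, edgeR) with its standard error as bars, and as grey bands the range with 1 library left out. Mycl (-2.57) and Myc (-0.87) lie farthest below 0, and Mxi1, Mxd4, Mnt and Mlx lie between 0.16 and 0.26.

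To compare levels between genes, the deposited FPKM was used, which divides by gene length. The lengths behind it do not follow the exon bases of GENCODE M21. With vehicle, Myc (2717 exon bases) had 46.4 CPM and 4.83 FPKM, Mxd4 (8483) 43.7 and 4.49, and Max (3598) 89.9 and 46.5. By exon bases Myc would stand higher and Max lower. The order below therefore holds only for the deposited FPKM. With vehicle the mean FPKM fell in the order Max (46.5), Mlx (11.8), Mnt (10.4), Mxi1 (7.77), Myc (4.83), Mxd4 (4.49), Mxd1 (3.81), Mycl (1.92), Mxd3 (1.47) and Mycn (0.00638). The libraries of Mlx and Mnt overlapped, as did those of Myc and Mxd4, so these neighbours did not differ beyond their spread in this measure. With DI the order was Max (41.0), Mlx (12.6), Mnt (10.8), Mxi1 (8.61), Mxd4 (5.01), Mxd1 (2.56), Myc (2.47), Mxd3 (0.970), Mycl (0.299) and Mycn (listed at 0). Here the libraries of Mxd1 and Myc overlapped. Mycl thus stood above Mxd3 with vehicle and below it with DI.

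The sums over the 2 sides of the network were also described per library. The summed FPKM of Myc, Mycl and Mycn was 7.25 and 6.28 with vehicle and 2.85 and 2.68 with DI, a mean of 6.76 ± 0.684 against 2.77 ± 0.118 (SD, n = 2 each). With DI the sum fell by 59.1%. In CPM it was 62.3 and 52.7 with vehicle and 28.3 and 26.2 with DI. The summed FPKM of Mxd1, Mxd3, Mxd4, Mxi1 and Mnt was 27.8 and 28.1 with vehicle and 28.4 and 27.6 with DI. In FPKM the groups overlapped and their means differed by less than the spread between libraries, with lower values of Mxd1 and Mxd3 beside higher values of Mxi1, Mxd4 and Mnt. In CPM on the TMM scale the sum of these opposing partners was 177 and 177 with vehicle and 196 and 186 with DI, without overlap. The deposited FPKM is divided by the library total and carries no TMM scaling. Sums in FPKM and in CPM therefore differ in the scaling between libraries as well as in gene length. The MYC genes made up 20.7% and 18.3% of both sides together with vehicle and 9.11% and 8.87% with DI. The mean share was 19.5 ± 1.71% against 8.99 ± 0.169%, a difference of -10.5 percentage points that lay between -11.7 and -9.26 with a library left out. Shares within a library do not depend on the scaling between libraries, but they do depend on the gene lengths behind the FPKM. In CPM, which is not divided by length, the share was 26.0% and 22.9% with vehicle and 12.6% and 12.4% with DI. The difference was then -12.0 percentage points. The lower share with DI was thus seen in both measures, while the level of the share differed between them.

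Mycl and Myc did not keep their proportion. Mycl gave 25.7% and 31.5% of the summed FPKM of the MYC genes with vehicle and 9.51% and 12.2% with DI. The ratio of Myc to Mycl was 2.88 and 2.17 with vehicle and 9.51 and 7.21 with DI. Max FPKM was 6.70 and 7.06 times the sum of the MYC genes with vehicle and 14.3 and 15.4 times with DI. Against the MYC genes and the opposing partners together, the ratio of Max was 1.39 and 1.29 with vehicle and 1.30 and 1.37 with DI, which overlapped. These shares and ratios also depend on the gene lengths behind the FPKM. In CPM, Mycl gave 17.3% and 21.8% of the MYC genes with vehicle and 5.97% and 7.72% with DI. The ratio of Myc to Mycl was then 4.77 and 3.60 with vehicle and 15.8 and 11.9 with DI. That of Max to the MYC genes was 1.51 and 1.63 with vehicle and 2.99 and 3.26 with DI. All of these are RNA levels, and protein was not measured here.

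**Figure D3:**
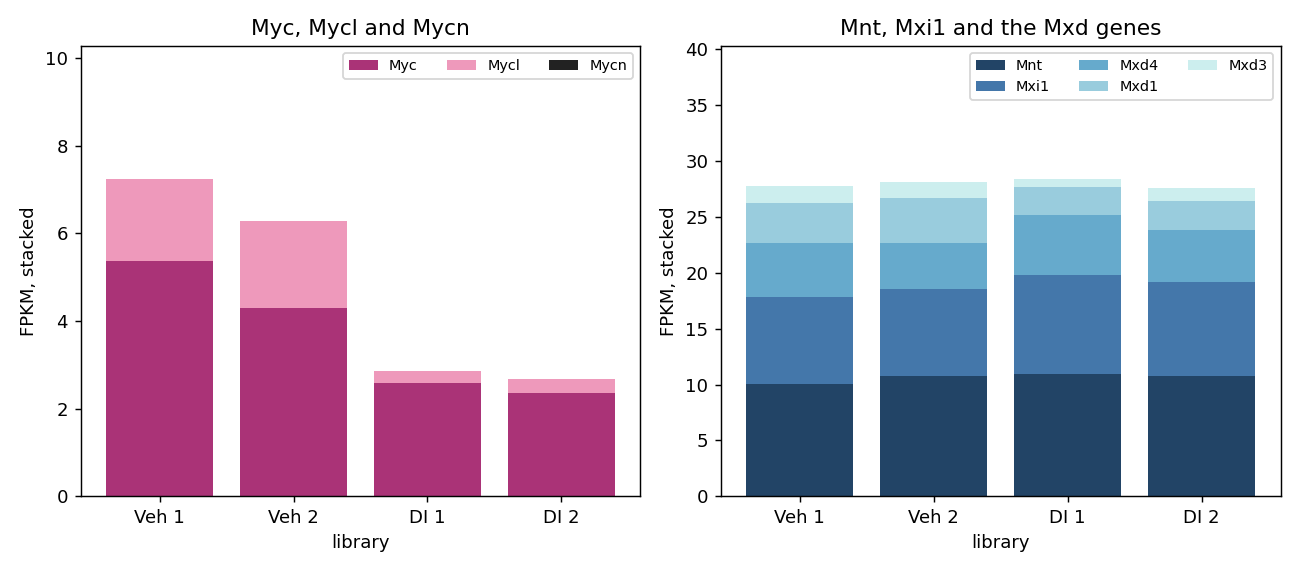
Stacked FPKM of the MYC genes and of their opposing partners in each library (vertical axes from 0, 2 RANKL+Veh and 2 RANKL+DI libraries). The MYC stack is 7.25 and 6.28 with vehicle and 2.85 and 2.68 with DI, and the opposing stack lies between 27.6 and 28.4 in all 4 libraries.

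The 3 genes most like Mycl across the 4 libraries, by the distance between log2 CPM values centred on each gene's mean among 10999 genes, were Zfp46, Pgf and Cxcl10. Zfp46, a zinc finger gene, had the smallest distance (0.233), with 16.7 and 15.2 CPM with vehicle and 3.09 and 3.31 CPM with DI. Pgf, placental growth factor, followed at 0.264 with a log2 fold change of -2.26, and Cxcl10, an interferon-induced chemokine, at 0.344 with -2.08. Part of Cxcl10 (5.91% of its exon bases) lies opposite Art3.

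The genes that work with or under the network were taken as lists written from general knowledge with earlier results of these data known, and tested in the same edgeR fit. The list of network genes outside the members holds the factors Mlxip, Mlxipl and Mga and the target genes Arrdc4 and Txnip. Of these 5 genes, 4 were tested, 2 rose and none fell. Both that rose were target genes, and none of the factors was called. Arrdc4, an arrestin-like gene that MondoA and MLX induce, was at 31.2 ± 1.02 CPM with vehicle and rose to 48.4 ± 2.10 CPM (SD, n = 2 in each group), with a log2 fold change of 0.63, a standard error of 0.070 and an edgeR adjusted p of 0.00396. Txnip, the thioredoxin-interacting protein gene and best known target of MondoA, rose from 197 ± 29.7 to 278 ± 24.2 CPM, with a log2 fold change of 0.50, a standard error of 0.11 and an edgeR adjusted p of 0.0334. The Txnip call was lost with library size only, where the edgeR log2 fold change was 0.40 and the adjusted p 0.0546, without DI replicate 2 and without vehicle replicate 2. Opposite Txnip, Gm15441 covers 19.4% of its exon bases. Mlxip, which encodes MondoA (log2 fold change -0.09), and Mga (-0.12), a large MAX partner, were not called, and Mlxipl had at most 2 counts in a library and was not tested.

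Of 26 targets of MYC in ribosome biogenesis, 19 fell (73.1%), none rose and all 26 had a log2 fold change below 0, with a median of -0.36. Leaving out DI replicate 1 put 1 of them, Imp4, just above 0. The lowest were Nolc1 (-0.61), a nucleolar phosphoprotein, Nop58 (-0.59), a core protein of the box C/D snoRNPs, and Gnl3 (-0.49), nucleostemin. Nolc1 was at 113 and 115 CPM with vehicle and 78.7 and 70.7 CPM with DI. Ubtf (-0.19), the RNA polymerase I factor UBF, was the called gene closest to 0, and its call was lost whichever library was left out, and in the Wald and exact tests. The count fell to between 11 and 14 when a library was left out, with 11 without DI replicate 2 and 12 without vehicle replicate 1 and also without vehicle replicate 2.

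Of 26 targets in growth metabolism, 13 fell and 3 rose, with a median of -0.24. Slc7a5, the large neutral amino acid transporter, was at 27.8 and 30.5 CPM with vehicle and 15.7 and 17.2 CPM with DI, and its log2 fold change was -0.82. Cad, which starts pyrimidine synthesis, fell (-0.63), as did Slc19a1, the reduced folate carrier (-0.71), whose call was lost without DI replicate 2 or vehicle replicate 2. The 3 that rose were Slc2a1, the glucose transporter GLUT1 (0.62), Pkm, pyruvate kinase (0.38), which has a near copy in the genome, and Slc3a2, the partner chain of the Slc7a5 transporter (0.38). The list thus moved in both directions, and the chains of the same amino acid transporter, Slc7a5 and Slc3a2, moved in opposite ones.

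Of 13 tested cell cycle targets, 5 fell and 1 rose, with a median of -0.22. Mcm4 (-0.59) and Mcm5 (-0.56) of the replicative helicase fell, as did Cdk4 (-0.38), which drives entry into S phase and overlaps Tspan31 over 19.7% of its exon bases. Id2, an inhibitor of differentiation factors, rose (0.44). Of 11 tested genes that MYC is known to repress, 7 rose and none fell, with a median of 0.39. The highest were Cdkn2b (1.21), Cdkn1c (1.10) and Cebpa (0.75). Cdkn2b and Cdkn1c encode the cyclin-dependent kinase inhibitors p15 and p57, and Cebpa a myeloid differentiation factor. Cdkn1c was at 48.1 and 45.8 CPM with vehicle and 102 and 98.9 CPM with DI, and Gm44732 covers 30.7% of its exon bases on the opposite strand. Cdkn2b was a low gene, at 1.18 and 1.44 CPM with vehicle and 2.56 and 3.47 CPM with DI, and its call was lost with the Wald test, with limma-voom, and without DI replicate 2, vehicle replicate 1 or vehicle replicate 2. With vehicle replicate 1 or vehicle replicate 2 left out, 4 genes of this list were called.

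**Figure D4:**
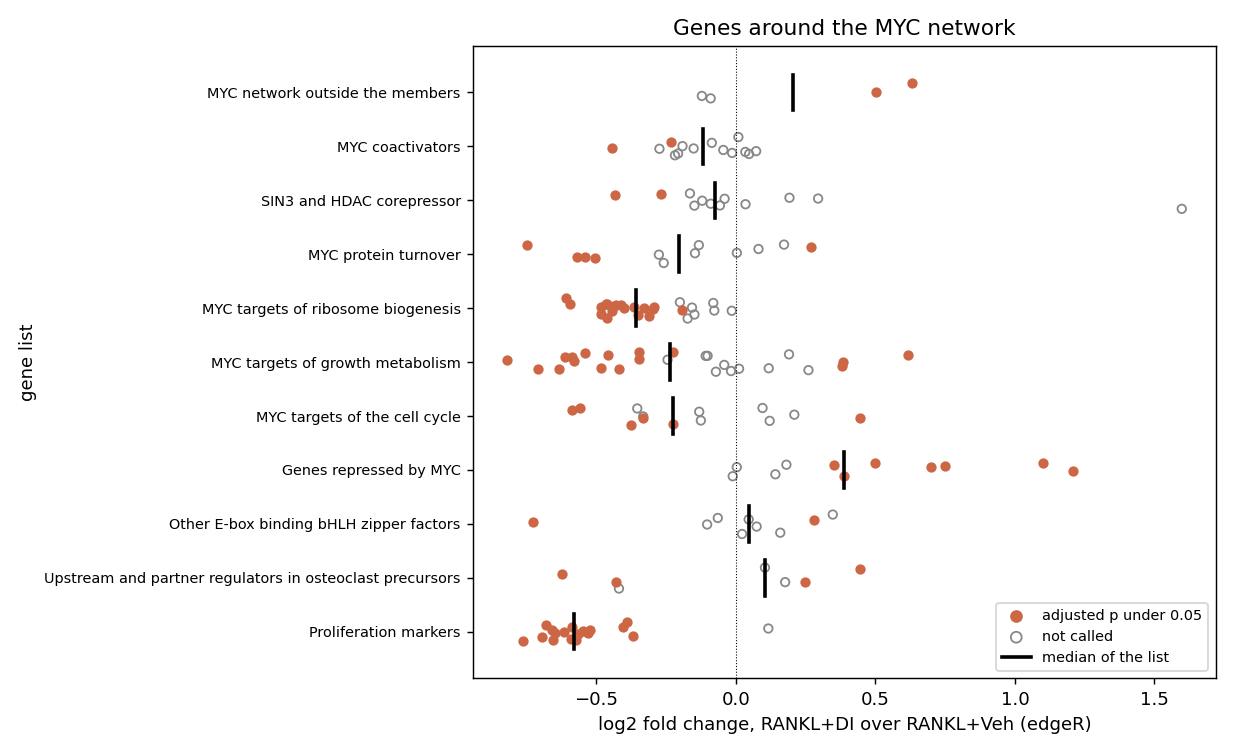
Log2 fold change (horizontal axis, RANKL+DI over RANKL+Veh, edgeR) of every tested gene in the lists around the network, with called genes filled and the median of each list as a bar. All 26 ribosome biogenesis targets lie below 0 in this fit, and the 7 called genes of the 11 repressed by MYC lie above 0.

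Genes that handle MYC as a protein were also read. Of 12 genes of MYC turnover, 4 fell and 1 rose, with a median of -0.20, and with library size only 7 fell and none rose. Plk1 (-0.75) and Aurka (-0.57), mitotic kinases that also protect MYC proteins from degradation, fell, as did Cip2a (-0.54), an inhibitor of the phosphatase PP2A. Ppp2r5a, a PP2A subunit that acts on MYC, was the 1 that rose (0.27). It has near copies in the genome, and its call was lost with library size only, in edgeR's exact test, without DI replicate 2 and without vehicle replicate 1. Without vehicle replicate 1 this list had 3 calls. Of 14 coactivators of MYC, 2 fell, Ruvbl2 (-0.44) of the TIP60 and INO80 complexes and Ep400 (-0.23), and Gys1 overlaps 10.7% of Ruvbl2. With library size only, 7 coactivators fell. Of 12 SIN3 and HDAC corepressor genes, which the MXD proteins recruit, 2 fell, Rbbp7 (-0.43), which has a near copy in the genome, and Hdac2 (-0.27), against 5 with library size only. The medians of these lists were -0.12 and -0.07, and the shares called, 14.3% and 16.7%, were near the 14.8% of all tested genes. The call of Hdac2 was lost whichever library was left out, that of Ep400 without DI replicate 1, DI replicate 2 or vehicle replicate 2, and that of Ruvbl2 without vehicle replicate 1. Both Ep400 and Hdac2 also lost it in edgeR's exact test, and Ep400 in the Wald test of DESeq2. Without DI replicate 2, Cdk9 was called lower in place of Ep400.

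Among 9 other bHLH zipper factors that read E-boxes, 1 fell and 1 rose (22.2% called, against 14.8% of all tested genes). Tfap4 (-0.73), itself a known target of MYC, fell, and its call was lost with the Wald test, with limma-voom and whichever library was left out. Tfe3 (0.28), a lysosomal and metabolic regulator of the MiT family, rose, and its call was lost when vehicle replicate 1 or vehicle replicate 2 was left out. Regulators that act beside or above MYC in osteoclast precursors moved in both directions. Nfatc1, the master regulator of osteoclasts, fell (-0.43), as did Prdm1 (-0.62), which represses anti-osteoclast genes and whose call was lost without vehicle replicate 1. Irf8 (0.45), a known brake on osteoclast formation, rose.

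Markers of proliferation and of cell type were read in the same fit. Of 18 proliferation markers, 17 fell and none rose, with a median of -0.58, led by Ccnb2 (-0.76), Ccnb1 (-0.70) and Bub1 (-0.68). Ccnb1 has near copies in the genome, and its call was lost without vehicle replicate 1. Pcna, which also has a near copy in the genome, was not called (0.12). Without vehicle replicate 1 there were 13 calls. Of 8 macrophage markers, 5 rose and 2 fell, and their summed level was 23125 and 22261 CPM with vehicle and 28443 and 29258 CPM with DI, most of it Lyz2. Of 6 tested osteoclast markers, 4 fell and 1 rose, and Calcr was at 0 in all libraries. The summed osteoclast markers were at 630.3 and 609.8 CPM with vehicle and 609.9 and 600.5 CPM with DI, so the groups overlapped. Most of this sum was Atp6v0d2, the 1 that rose. The part of cell division and of cell type in the levels of the members and their targets was not tested. Markers of B cells, T and NK cells, mast cells, erythroid cells and dendritic cells each summed to at most 0.816 CPM in any library. Neutrophil markers summed to 7.89 to 9.90 CPM with Ly6g at 0, and stromal markers to 39.3 to 46.0 CPM, and no gene of either list was called.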

How the data were processed

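RNA of BMMs was sequenced by the authors in 2 RANKL+DI and 2 RANKL+Veh libraries, grouped by their labels. The deposited counts are raw, with 1 column per library, and the authors gave FPKM values beside them (counts divided by gene length and library total). The gene lengths behind the FPKM do not follow the exon bases of GENCODE M21. The submitters' processing notes name the builds GRCm38 and mm10. The aligner, the counting program and the use of strand are not given in the sources used here. A second table, which repeats these values with pathway annotation, was not used.

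The members and lists were chosen with earlier results of these data known. Counts were fitted in edgeR 4.0.16 (R 4.3.3) with TMM scaling, edgeR's own filter for low counts, the quasi-likelihood test with the condition as the only term, and Benjamini-Hochberg adjustment over 12590 genes, called at an adjusted p under 0.05. Standard errors were derived from the F statistics, with 2 residual degrees of freedom before moderation. Floors cover counting error only. All members were named, together with all network genes outside the members, the 3 highest and 3 lowest called genes of the other lists at most, and the 3 genes most like Mycl with an average log2 CPM over 1. Sap18 was named after its values were seen, and 1 called gene of a list is not reported here. Coordinates of genes are those deposited. Overlapping genes were read from GENCODE M21, near copies were searched with BLAST+ 2.17.0, and no member had one. Positions of the motifs are given in RefSeq windows of GRCm38.p6.

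The alternatives were DESeq2 size factors, upper quartile factors, library size only, no filter, at least 10 counts in every library, limma-voom (limma 3.58.1), the exact test of edgeR, the Wald test of DESeq2 1.42.0, a block for the replicate number, log2(FPKM + 1) and log2(FPKM + 0.01) with limma, CPM in place of FPKM for the shares, and each library left out.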

Additional observations from a re-analysis of the deposited data

How the results depend on the processing

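No member, no called gene of the lists and no share of MYC transcripts changed sign under the alternatives run. Of 2111 values of 161 single genes, 1967 stayed on their side of the threshold, 117 lost it and 27 gained it. With library size only, calls were 7 for coactivators, 5 for SIN3 and HDAC genes and 1 for network genes outside the members. Deviations of same-numbered libraries were hardly correlated over the tested genes (-0.05). This rests on 1 difference per group and cannot show whether the samples were paired. The replicate block gave 1389 calls over all genes, 4 among genes repressed by MYC and 1 each for coactivators, network genes outside the members, other bHLH zipper factors, and SIN3 and HDAC genes, and it ended the calls of Txnip, Ep400, Hdac2, Ubtf, Slc19a1, Cdkn2b and Tfap4 among the genes named. The Wald test called 1 coactivator and 1 other bHLH zipper factor, the exact test 1 coactivator and 1 SIN3 and HDAC gene, and limma-voom 1 other bHLH zipper factor. The causes were not tested. With a library left out, which leaves 1 sample in a group, assumed to vary like the other group, calls over all genes were 1087 (without vehicle replicate 2) to 1394, with 1120 without vehicle replicate 1. The ranges were 4 to 5 for genes repressed by MYC, 1 to 2 for coactivators (1 without DI replicate 1, vehicle replicate 1 or vehicle replicate 2), 1 to 2 for network genes outside the members, 3 to 5 for turnover, 11 to 14 for ribosome biogenesis, 0 to 1 for other bHLH zipper factors (0 without vehicle replicate 2), and 1 to 2 for SIN3 and HDAC genes (1 without DI replicate 1 or DI replicate 2). The calls among SIN3 and HDAC genes were all lower in the main fit, but not without vehicle replicate 1 or without vehicle replicate 2. With 2 libraries a group, small differences such as that of Max, and low genes such as Mxd3, are the least certain.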

Other observations

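Sap18, a SIN3 corepressor subunit, had 221 counts in vehicle replicate 1 and 25 in vehicle replicate 2, against 350 and 391 with DI. The vehicle libraries were thus far apart, and Sap18 was not called (log2 fold change 1.60, standard error 0.67, edgeR adjusted p 0.177).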
